A study of Bos taurus with 8 samples.

Results

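FBLN1 and 9 other genes of the elastic fibre were followed window by window in a map of DNA methylation in cattle skin fibroblasts. The members were FBLN1, FBLN2, FBLN5 and EFEMP1 of the fibulin family, the fibrillins FBN1 and FBN2, elastin (ELN), the latent TGF-beta binding proteins LTBP1 and LTBP2, and the cross-linking enzyme LOX. Every window of roughly 3 kb carrying 1 of these 10 symbols was taken, which gave 416 of the 902984 windows in the whole series. FBLN1 was chosen by a measured value, the difference between breeds in its window 5, so the breed values of FBLN1 are given as a description with no test. The other 9 genes were chosen for their role in the same fibre.

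Dermal fibroblasts were grown from shoulder skin biopsies of 4 Holstein heifers, a dairy breed, and 4 Angus heifers, a beef breed, all of about the same age when sampled. Each library came from the un-treated culture of 1 animal at passage 5, so each breed is represented by 4 animals and each animal by 1 culture. No agent or altered gene was involved in either group, and breed and rearing cannot be told apart, since the calves of each breed were raised in their own way. Methylated DNA was pulled down with methyl-binding proteins and sequenced (MIRA-Seq), and reads were counted in consecutive windows of the UMD v3.1 bovine genome. The assay measures DNA and no transcripts, so the cell type could not be set against marker genes.

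Elastic fibres give skin, arteries and lung their recoil. Tropoelastin, the product of ELN, is laid down on a scaffold of fibrillin microfibrils with the help of fibulins and is then cross-linked by lysyl oxidases. Dermal fibroblasts are the cells that build these fibres in skin. Methylated cytosines are found through most of the mammalian genome, with gene starts in CpG islands as the main exception.

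The libraries held between 18691111 and 35525554 reads in windows. Values are given as CPM, the count scaled to the total of these reads in the library, and 3 reads corresponded to between 0.08445 and 0.1605 CPM depending on the library. All 416 member windows were 3000 bp long, so CPM per window is also a value per length. The highest 1% of windows took between 46.8% and 57.4% of the reads in 6 libraries, and 69.0% and 72.4% in Holstein 1 and Angus 3, which stood apart. Member windows received between 6221 and 16729 reads in a library, or between 0.0258% and 0.0471% of its total. The low ends of these ranges were those of Holstein 1 and Angus 3, respectively, and several values below are also given without these libraries.

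Reads in FBLN1 were spread unevenly along the gene. FBLN1, which encodes a secreted calcium-binding glycoprotein found in the elastin core of the fibre, lies on the plus strand of chromosome 5 from 116614706 to 116695705 and covers 27 windows, numbered here in the direction of transcription. Window 1, which holds coding exon 1, was the lowest of the 27 over the 8 libraries at 0.720 ± 0.159 CPM (SD, n = 8). Levels climbed through windows 2 to 4, stood at 4.64 and 4.26 CPM in windows 13 and 15, and were highest in window 21 at 6.32 CPM, where coding exon 16 begins. The last window, with coding exon 17, had 5.31 CPM. The gene was therefore read most heavily in its later portion. Relative to the level, the 2 breeds differed less there than over windows 2 to 6.

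**Figure D1:**
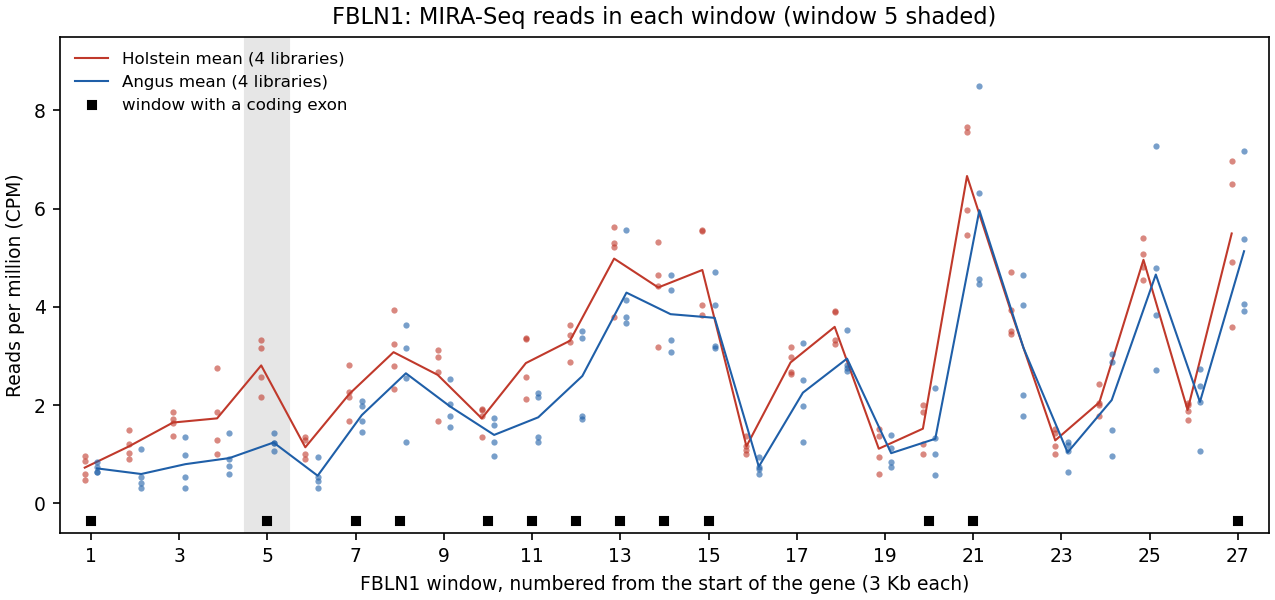
Reads along FBLN1 in CPM (vertical axis) for each of its 27 windows of 3 kb (horizontal axis), with a point per library, lines for the means of 4 Holstein and 4 Angus libraries, squares for windows with a coding exon, and window 5 shaded. Window 1 is the lowest and window 21 the highest. The Holstein line lies above the Angus line over windows 2 to 6, most widely at window 5. Relative to the level, the lines are closer from window 21 on.

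Window 5 of FBLN1 covers chromosome 5 from 116626706 to 116629705 and holds coding exon 2. The Holstein libraries had 43, 77, 68 and 112 reads in it, or 2.18, 3.33, 2.57 and 3.15 CPM. The Angus libraries had 35, 41, 32 and 23 reads, or 1.22, 1.43, 1.08 and 1.23 CPM. Every Holstein library lay above every Angus library, with means of 2.81 ± 0.532 and 1.24 ± 0.144 CPM (SD, n = 4 each). The log2 fold change of Holstein over Angus was 1.02 (SE 0.173), a 2.02-fold difference, and 1.10 without Holstein 1 and Angus 3. It lay so near the limit of 2-fold that leaving out Holstein 2 brought it to 1.94-fold and leaving out Angus 4 to 1.92-fold.

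This window was 1 of 45 called higher in Holstein under the rule that selected it, a false discovery rate (FDR) below 0.1 and a fold change of at least 2 in edgeR's likelihood-ratio test. Those 45 are 0.0390% of the 115360 windows tested, and 267 windows, or 0.231%, were called in either direction. The number called higher in Holstein was 27 with edgeR's quasi-likelihood test, 18 with DESeq2 and 83 with scaling by total reads alone. By size of fold, FBLN1 window 5 stood at rank 5 from the smallest of the 45. Just inside the fold limit were 2 windows without a gene symbol at log2 1.00 and 1.01 and window 7 of SLC2A1 at 1.01. Just outside were a window without a symbol at 0.998, window 19 of MEGF6 at 0.994 and window 238 of DPP6 at 0.994.

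The breed difference at window 5 was not spread evenly over FBLN1. Over the other 26 windows the mean was 2.80 ± 0.406 CPM in Holstein and 2.31 ± 0.611 CPM in Angus (SD, n = 4 each), and the libraries overlapped, from 2.26 to 3.22 CPM against 1.66 to 2.95 CPM. Window 5 thus stood at 0.999 ± 0.0878 times the mean of the other windows in Holstein and at 0.556 ± 0.107 times in Angus. As a share of all FBLN1 reads, it took 3.57%, 4.16%, 3.45% and 3.63% in the Holstein libraries and 2.37%, 1.99%, 2.42% and 1.58% in the Angus libraries. These shares do not depend on how libraries are scaled, and they did not overlap between breeds. The shares and the ratios reuse the counts of window 5, which was chosen for its breed difference. Their separation is therefore a description and adds no separate evidence.

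**Figure D2:**
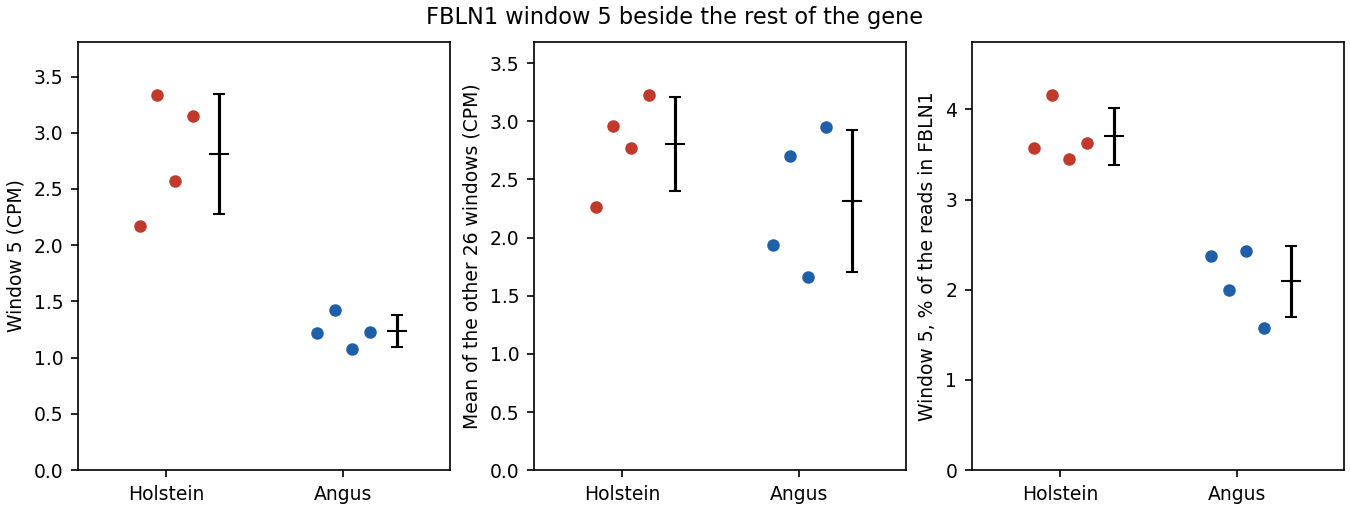
FBLN1 window 5 beside the rest of the gene, with a point per library and bars for the mean and SD of 4 libraries per breed: CPM in window 5, mean CPM of the other 26 windows, and percent of FBLN1 reads in window 5. Holstein libraries lie above all Angus libraries in the left and right panels, and the breeds overlap in the middle panel.

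Neighbours of window 5 leaned the same way. Window 3 had 1.37, 1.65, 1.85 and 1.72 CPM in the Holstein libraries and 0.977, 1.36, 0.537 and 0.321 CPM in the Angus libraries, and the closest values of the breeds, 1.366 and 1.356 CPM, were nearly level. Its log2 fold change was 0.84 (SE 0.249). Windows 2 and 4, with log2 fold changes of 0.76 and 0.72, overlapped between breeds. Window 6 averaged 1.14 ± 0.216 CPM in Holstein and 0.563 ± 0.266 CPM in Angus, was below the filter on low counts, and had 1 Angus library inside the Holstein range. Window 5 relative to the mean of windows 4 and 6 was 2.03 ± 0.438 in Holstein and 1.85 ± 0.659 in Angus, which overlapped. Windows 2 to 4, without window 5, together took between 5.18% and 6.86% of FBLN1 reads in Holstein and between 1.58% and 5.44% in Angus, which overlapped at Angus 2.

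Away from this stretch the breed values of FBLN1 were smaller. Window 16, with no coding exon, did not overlap between Holstein (1.16 ± 0.160 CPM) and Angus (0.748 ± 0.141 CPM; SD, n = 4 each), and its log2 fold change was 0.48. Window 11, with coding exon 6, had 2.86 ± 0.615 and 1.75 ± 0.523 CPM, a log2 fold change of 0.59, and overlapped. In windows 7 to 10, 12 to 15 and 17 to 25 the log2 fold changes lay between -0.10 and 0.27, and the last pair of windows stood at -0.23 and -0.03. Of the 25 FBLN1 windows that passed the filter (at least 1 CPM in at least 4 libraries), 22 had a log2 fold change above 0, with a median of 0.18, while over all 115360 windows tested 49.57% were above 0 and the median was -0.002. The 25 windows that passed are not all 27, and a window that is high in 1 breed only can pass through that breed. Window 16 passed in this way. All 4 of its Holstein libraries had at least 1 CPM, while the highest Angus library had 0.939 CPM. Its lack of overlap and its sign are therefore a description only.

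Among the 9 other members no window was called, against 0.231% of all windows tested. With a share this low, the absence of calls does not set these members apart from other genes. They contributed 72 of the 97 member windows that passed the filter. Of these 72, 44 had a log2 fold change above 0, with a median of 0.06, and the lowest FDR in edgeR's likelihood-ratio test was 0.142. At an unadjusted p below 0.05 there were 11, 10 of them with the higher value in Holstein; over all windows tested there were 5700, 2728 of them with the higher value in Holstein. EdgeR's quasi-likelihood test and DESeq2 also called 0 of these windows, and each called 141 of all 115360 windows tested. Holstein libraries lay wholly above Angus libraries in 3 of the 72 windows in CPM, against 1.11% of all windows tested, and the reverse held in 0 against 0.208%. TMM scaling corrects for libraries in which few windows take much of the reads. After it the counts were 6 and 1 of 72 against 1.38% and 1.25%. A window that is high in 1 breed only can pass the filter through that breed, so these counts are a description only.

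The filter was met by 97 of the 416 member windows, 23.32%, and by 12.78% of all windows. All Holstein libraries were above all Angus libraries in CPM in 7 of the 319 member windows that did not pass, against 0.976% of all such windows, and the reverse was seen in 0 against 0.243%. After TMM scaling the counts were 4 and 1 of 319, against 0.763% and 0.728%, and 3 windows were separated under both scalings. FBN2 and LOX had no window that passed, and with no filter on low counts no member window was called, FBLN1 window 5 included. Reads summed over each gene were tested as well, with FBLN1 given as a description only.

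None of the 9 members other than FBLN1 was called between breeds on summed reads, where 21 of 23330 genes, 0.0900%, were called. With a share this low, 0 calls do not set these members apart from other genes. Of the 23330 genes, 569 had an unadjusted p below 0.05 in edgeR's likelihood-ratio test, and of these 9 members ELN alone was among them. With edgeR's quasi-likelihood test 0 and with DESeq2 9 genes were called in all, none of them a member. FBLN1, whose summed reads include window 5, had a log2 fold change of 0.16 (SE 0.157), given as a description. The breeds overlapped in mean CPM per window for each of the 10 genes. In order of that level over the 8 libraries, FBLN2 stood first at 5.12 ± 0.929, then FBLN1 at 2.54 ± 0.550, LTBP2 at 1.65 ± 0.280, ELN at 1.36 ± 0.390 and FBLN5 at 0.755 ± 0.175 CPM per window (SD, n = 8). LTBP1 with 0.372 ± 0.0947, FBN1 with 0.340 ± 0.105, FBN2 with 0.310 ± 0.0884, EFEMP1 with 0.231 ± 0.0634 and LOX with 0.196 ± 0.0756 CPM per window followed. The ranges of mean ± SD overlap between neighbours in this second set and between LTBP2 and ELN, and do not overlap between the other neighbours. All genes were read in the same libraries, so these SDs include differences between libraries that the genes share. Library by library, LTBP2 was always above ELN and FBN2 always above EFEMP1. The other neighbours in the second set did not keep their order in every library. FBLN2 was above 98.41% and LOX above 14.83% of all genes in the files, whose median was 0.522 CPM per window.

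**Figure D3:**
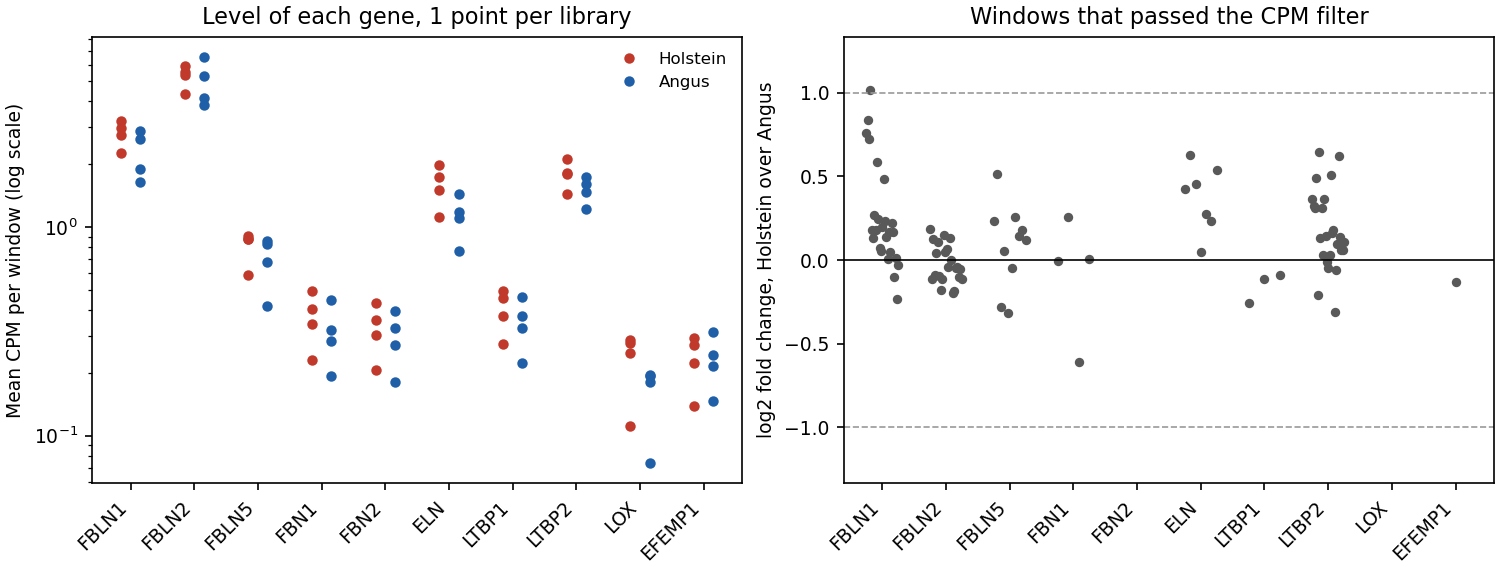
Left, mean CPM per window (log scale) of each of the 10 genes with a point per library; right, log2 fold change of Holstein over Angus in each member window that passed the filter, with dashed lines at a 2-fold difference. The breeds overlap in every gene on the left, and on the right only FBLN1 window 5 reaches the upper line; FBN2 and LOX have no window there.

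FBLN2, whose product bridges fibronectin, fibrillin and basement membrane proteins, was the most heavily read member. It lies on the minus strand of chromosome 22 from 58989067 to 59061066 in 24 windows, of which 22 passed. Its first window had 0.881 ± 0.381 CPM (SD, n = 8) and holds no coding exon. Coding exon 1 comes in window 8, which had 9.44 CPM, and window 22, the highest of any member, had 11.1 CPM, with between 8.06 and 14.8 CPM over the libraries. The Holstein libraries had 9.10, 12.1, 10.6 and 12.6 CPM in window 22 and the Angus libraries 9.43, 11.7, 8.06 and 14.8 CPM, wholly interleaved.

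Breed values of FBLN2 were close to 0 in the 22 tested windows. The widest of these was window 18 at a log2 fold change of -0.20, with 5.68 ± 0.828 CPM in Holstein and 6.05 ± 2.07 CPM in Angus (SD, n = 4 each). In 8 of the 22 windows the log2 fold change was above 0 after TMM scaling, but in 18 of 22 when libraries were scaled by total reads alone, a scaling under which the median of all windows moved to 0.14. Relative to that median FBLN2 stood at -0.04 and -0.05. On summed reads the log2 fold change was -0.06 (SE 0.168).

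FBLN5, which ties tropoelastin to microfibrils and to integrins on the cell surface, lies on the minus strand of chromosome 21 from 57152663 to 57248662 in 32 windows, 10 of which passed. Its first window, with coding exon 1, was at 0.0998 ± 0.0859 CPM (SD, n = 8) and had 0 reads in 3 libraries, which allows up to 3 reads, or 0.1517, 0.1007 and 0.1605 CPM, in Holstein 1, Angus 3 and Angus 4. Its highest window was number 20 at 2.45 CPM, with no coding exon. That window ran from 1.86 to 2.93 CPM in Holstein and from 1.78 to 3.26 CPM in Angus. After TMM scaling all its Angus libraries lay above all Holstein libraries, and it was the single window of the 72 to do so. In 6 of the 72 all Holstein libraries lay above all Angus libraries, among them ELN window 5 and FBLN2 window 2.

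Window 8 of FBLN5 had the widest log2 fold change among the tested windows of the gene. It had 1.32, 1.34, 1.36 and 2.00 CPM in the Holstein libraries and 1.05, 1.18, 0.806 and 0.696 CPM in the Angus libraries. The groups did not overlap, with a log2 fold change of 0.51 (SE 0.223), but the FDR was 0.831 in edgeR's likelihood-ratio test. Window 3, with coding exon 3, did not pass the filter and also had no overlap, at 0.681 ± 0.0975 CPM in Holstein and 0.360 ± 0.205 CPM in Angus (SD, n = 4 each). Over the whole gene the log2 fold change was 0.10 (SE 0.121), and 0.024 without Holstein 1, the library with the lowest Holstein level of FBLN5, and Angus 3.

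EFEMP1, also called fibulin-3, an extracellular matrix protein of fascia and retina, had few reads. It lies on the minus strand of chromosome 11 from 38337485 to 38409484 in 24 windows, and only window 3, with coding exon 3, passed. That window had 0.759, 1.04, 1.17 and 1.44 CPM in the Holstein libraries and 1.15, 1.22, 0.470 and 1.82 CPM in the Angus libraries. The lowest and highest of the 8 were both Angus, and the log2 fold change was -0.13 (SE 0.232). EFEMP1 window 19 had no overlap in CPM but rested on at most 5 reads in a library and overlapped after TMM scaling.

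The fibrillins, which form the microfibril scaffold, were thinly read over long genes. FBN1 lies on the plus strand of chromosome 10 from 61877001 to 62144000 in 89 windows and FBN2, the fibrillin used mostly before birth, on the plus strand of chromosome 7 from 26694646 to 26919645 in 75. Of FBN1 windows, 4 passed, namely 47, 59, 70 and 71, all with coding exons. Window 59 was the highest at 1.55 CPM, with between 1.63 and 1.97 CPM in Holstein and between 0.803 and 2.05 CPM in Angus. FBN2 was highest in its last window, 75, at 1.03 CPM, where the breeds also overlapped.

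FBN1 window 70 was, of the member windows that passed the filter, the one with the widest log2 fold change toward Angus. It had 0.658, 0.866, 0.984 and 1.18 CPM in the Holstein libraries and 1.68, 1.22, 1.14 and 0.963 CPM in the Angus libraries. The groups overlapped, and the log2 fold change of -0.61 (SE 0.246) had an FDR of 0.708 in edgeR's likelihood-ratio test. In FBN2, windows 4 and 44, below the filter, had all Holstein libraries above all Angus libraries in CPM, at 0.432 ± 0.127 against 0.195 ± 0.0389 and at 0.397 ± 0.0591 against 0.192 ± 0.0747 (SD, n = 4 each). After TMM scaling window 4 overlapped and window 44 did not. On summed reads the log2 fold changes were 0.09 (SE 0.146) for FBN1 and -0.0035 (SE 0.135) for FBN2.

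ELN stood a little higher in Holstein along its whole tested length. The gene encodes tropoelastin and lies on the minus strand of chromosome 25 from 33786101 to 33822100 in 12 windows, 7 of which passed. All 7 had a log2 fold change above 0, with a median of 0.42, also when libraries were scaled by total reads alone. In mean CPM per window the Holstein libraries had 1.12, 1.73, 1.50 and 1.99 and the Angus libraries 1.18, 1.44, 0.767 and 1.11. Holstein 1 fell inside the Angus range, and the log2 fold change over the gene, 0.35 (SE 0.125), had an unadjusted p of 0.00531 and an FDR of 0.880 over all genes in edgeR's likelihood-ratio test. Without Holstein 1 and Angus 3 it was 0.33.

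Single windows of ELN differed in how far the breeds lay apart. Window 6, which begins with coding exon 14, had 2.23, 2.03, 1.40 and 2.84 CPM in the Holstein libraries and 1.26, 1.67, 0.940 and 1.07 CPM in the Angus libraries, which overlapped at Holstein 3 and Angus 2. Its log2 fold change was 0.63 (SE 0.218) with an FDR of 0.424 in edgeR's likelihood-ratio test. Window 9, the highest at 2.88 CPM, was close to level between breeds, at 3.04 ± 0.710 and 2.72 ± 0.681 CPM (SD, n = 4 each) and a log2 fold change of 0.05. Window 1, with coding exon 1, did not pass the filter and had no overlap, from 0.607 to 1.30 CPM in Holstein and from 0.268 to 0.593 CPM in Angus.

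LTBP2, a microfibril protein that unlike its relatives does not hold latent TGF-beta, had the window with the lowest FDR among the members other than FBLN1. It lies on the minus strand of chromosome 10 from 86186201 to 86294200 in 36 windows, 25 of which passed. Window 32, which holds coding exon 20, had 1.87, 2.34, 2.19 and 2.45 CPM in the Holstein libraries and 1.22, 1.18, 1.24 and 1.55 CPM in the Angus libraries. No library crossed, with means of 2.21 ± 0.251 and 1.30 ± 0.170 CPM (SD, n = 4 each), a log2 fold change of 0.62 (SE 0.182) and the FDR of 0.142 given above as the lowest outside FBLN1. That fold lay under the limit of 2, so the window would not be called at any FDR.

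Other LTBP2 windows gave less. Window 7 also had no overlap between means of 1.23 ± 0.0714 CPM for Holstein and 0.783 ± 0.158 CPM for Angus. Its log2 fold change was 0.49, and its FDR was 0.923 in edgeR's likelihood-ratio test. Its Holstein mean lay above the filter's limit of 1 CPM and its Angus mean below, so it could pass through the Holstein libraries. Its lack of overlap is therefore a description only. Window 9 had the widest log2 fold change among the tested windows of the gene, 0.65 (SE 0.292), but overlapped. The highest window of LTBP2, number 28, was at 6.83 CPM and had means of 6.55 ± 0.869 in Holstein and 7.11 ± 1.64 in Angus. Of the 25 windows 20 had a log2 fold change above 0, and the summed reads gave 0.09 (SE 0.139).

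LTBP1, which anchors latent TGF-beta to microfibrils, is the longest member by windows and lies on the plus strand of chromosome 11 from 15674985 to 15950984. Only 3 of its 92 windows passed, and window 9, without a coding exon, was both the highest at 1.17 CPM and the one with the widest log2 fold change of those tested, -0.26 (SE 0.227). That value was -0.093 without Holstein 3, -0.16 without Angus 2 and -0.11 with scaling by total reads alone. None of the 3 had a log2 fold change above 0 after TMM scaling, while 2 of the 3 did by total reads alone. Windows 40 and 87, below the filter, had no overlap in CPM, at 0.609 ± 0.172 against 0.329 ± 0.190 and at 0.830 ± 0.113 against 0.431 ± 0.159 (SD, n = 4 each), but overlapped after TMM scaling. LTBP1 summed over its windows stood at a log2 fold change of 0.06 (SE 0.123).

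LOX, the copper enzyme that oxidises lysines of elastin and collagen so that they cross-link, was the least read. It lies on the plus strand of chromosome 7 from 33088746 to 33103745 in 5 windows, which together drew between 11 and 44 reads in a library. Its mean CPM per window was 0.111, 0.277, 0.288 and 0.248 in the Holstein libraries and 0.196, 0.181, 0.0739 and 0.193 in the Angus libraries. The log2 fold change of 0.40 was the largest on summed reads but its SE was 0.246, and the low values were again those of Holstein 1 and Angus 3, without which it was 0.36.

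Most members shared a shape along the gene that the choice of members did not use. In 9 of 10 members the first window had a lower mean than the other windows, and in 7 this held in each of the 8 libraries. The exceptions to the latter were FBN2 with 7 of 8 libraries and LOX with 6, and EFEMP1 showed the reverse in all 8. Over genes of at least 5 windows, the first window was below the others by its mean in 67.44% and in every library in 44.55%, so the pattern is common across the genome. The median log2 ratio of first to other windows was -1.35 over the 10 members and -0.55 over 12761 genes.

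The depth of this dip differed between members. Other windows stood above the first by 7.78-fold in FBLN5, 6.03-fold in FBLN2, 4.95-fold in LTBP2, 3.62-fold in FBLN1, 3.22-fold in FBN1, 2.02-fold in ELN, 1.99-fold in FBN2, 1.80-fold in LTBP1 and 1.31-fold in LOX. In EFEMP1 the first window, with coding exon 1, had 0.425 ± 0.108 CPM against 0.222 ± 0.0651 CPM in the others (SD, n = 8). Apart from FBLN2, every member has its first coding exon in the first window. In thinly read genes the first window held very few reads, between 0 and 5 in FBN1 and between 1 and 8 in LOX, so these ratios are loose.

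**Figure D4:**
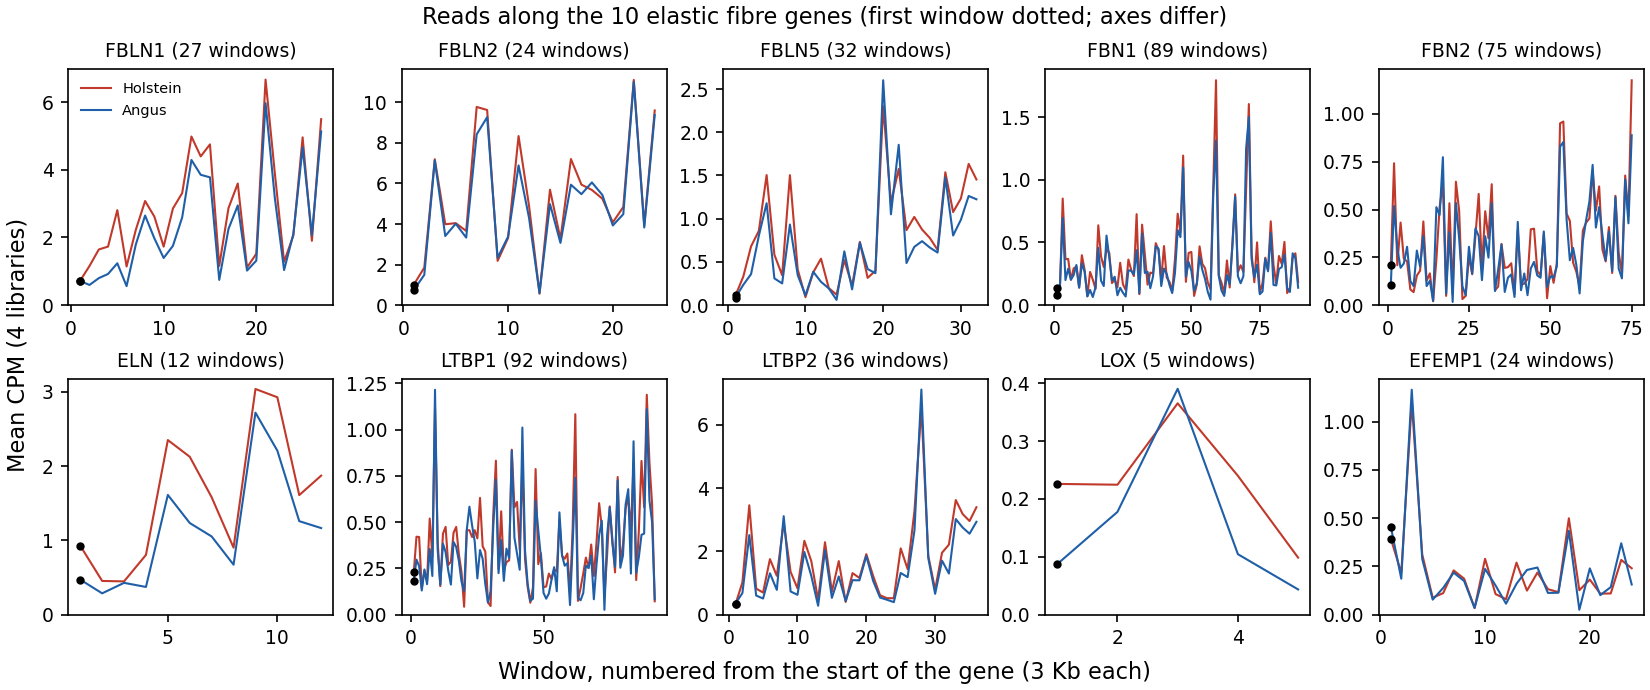
Mean CPM of 4 Holstein and 4 Angus libraries (vertical axis, its scale set per gene) in each window from the start of the gene (horizontal axis) for the 10 members, with the first window dotted. The breed lines follow each other in every gene, and the first window is below the mean of the others in all but EFEMP1.

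Windows with coding exons were read more than windows between them. Leaving out the first window, those with a coding exon exceeded those without in all 8 libraries for 9 of the 10 genes and in 6 of 8 for LOX. The ratio was 2.38 in LTBP2, 2.16 in EFEMP1, 1.66 in FBLN1, 1.64 in FBLN5 and 1.61 in ELN, then 1.54 in FBN2, 1.53 in FBLN2, 1.43 in FBN1 and 1.26 in LOX. It was smallest in LTBP1 at 1.07, with 0.392 against 0.368 CPM. This difference was not tested, because windows of 1 gene share libraries and are not replicates, and the base composition of the windows was not analysed here. It was also not compared with other genes.

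Reads also gathered toward the end of most genes. The later windows of a gene, split at the middle, were above the earlier ones in all 8 libraries in 8 genes, by 2.28-fold in FBLN5, 1.82-fold in ELN, 1.63-fold in LTBP2, 1.51-fold in FBLN1, 1.44-fold in FBN1, 1.31-fold in FBN2, 1.15-fold in FBLN2 and 1.07-fold in LTBP1. EFEMP1 and LOX ran the other way, at 0.749 and 0.680, with the later windows above in 0 and 1 of the 8 libraries. Both are the genes with the lowest levels. The earlier windows include the first one, which was low in most members. This pattern was not compared with other genes, so whether it is particular to the members was not tested.

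**Figure D5:**
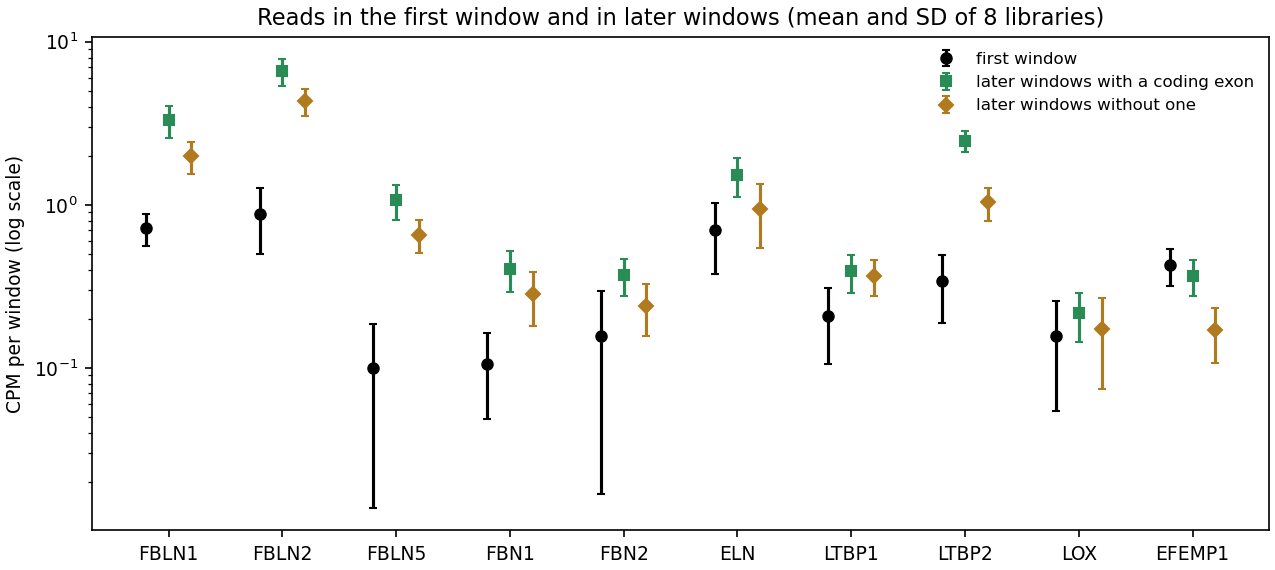
CPM per window (log scale, mean and SD of 8 libraries) in the first window, in later windows with a coding exon and in later windows without one, for the 10 members. The mean of the first window lies below both other classes in all members but EFEMP1, and later coding-exon windows lie above windows without one in every gene.

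The pattern of FBLN1 window 5 over the 8 libraries was set against other windows as a description. Likeness was measured as the Pearson correlation of log2(CPM + 0.5) over 66900 windows with a gene symbol that passed the filter. The closest were window 15 of C26H10orf26 at r = 0.989, window 10 of CSNK1D at 0.981 and window 23 of C21H14orf159 at 0.972, and 218 windows had r above 0.9. Of the members, LTBP2 windows 32 and 7 were closest at 0.944 and 0.921, followed by FBLN1 window 16 at 0.914. All these points share the same 8 libraries and 1 breed contrast, so any window that separates the breeds scores high.

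A further 27 genes of the fibre were counted in the same fits, in 5 groups: other fibulins and hemicentins, other microfibril genes, LOX-like enzymes, ADAMTS and ADAMTS-like genes that bind microfibrils, and enzymes that degrade elastin. On summed reads 0 of 27 were called, against 0.0900% of all genes tested. Of their 203 windows that passed the filter 0 were called, against 0.231% of all windows tested. With shares this low, 0 calls do not set these genes apart from others. Their median log2 fold change was -0.02, with 11 of 27 above 0. The values ran from -0.20 (SE 0.265) in MMP12 to 0.32 (SE 0.228) in CTSS, both enzymes that cleave elastin. Both genes were thinly read, and neither had a window that passed the filter. The widest of the other groups were EFEMP2 (fibulin-4) at -0.08, LTBP3 at -0.09, LOXL1, which cross-links elastin, at 0.25, and ADAMTSL4 at -0.11.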

How the data were processed

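MIRA-Seq was done on genomic DNA of 8 cultures, 4 Holstein and 4 Angus, grouped by the labelled breed. Per the study's methods, methylated fragments were enriched with the MethylCollector Ultra kit, sequenced, and aligned to UMD v3.1 in NextGENe 2.3.4 after low-quality reads were removed; the submitters' processing notes also name CASAVA 1.7. How duplicate and multiply mapped reads were handled is not given in the sources used here. The deposited files give raw read counts, not normalized, in 902984 windows, and the mean and highest per-base coverage (signal) of each window as the authors exported it. File headers list between 32038682 and 56452423 matched reads per library, more than the windows hold.

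Windows with at least 1 CPM in at least 4 libraries were kept (115360), scaled by TMM and tested between breeds in edgeR 4.0.16 with the likelihood-ratio test of a model with breed only, with Benjamini-Hochberg adjustment over all windows tested. A call needed an FDR below 0.1 and a fold change of at least 2. The filter, the kind of test and these limits follow the study's methods; TMM and the model with breed only were chosen here. The same was done on reads summed over all windows of a gene symbol (23330 genes). Libraries of 1 breed are different animals. Levels are CPM of the reads in windows, and limits from a count of 0 (3 reads) cover counting error only. The fits were also run on simulated counts drawn from 1 average profile for all libraries. These lacked the uneven reads that set Holstein 1 and Angus 3 apart, and no result here rests on them. Alternatives were edgeR's quasi-likelihood test, DESeq2 1.42.0, other scalings and filters, placed chromosomes only, a replicate block, other thresholds and leaving out libraries; leaving out Holstein 1 and Angus 3 together was added after seeing the data.

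The members and lists were chosen with earlier results of these data known. Values are printed for every FBLN1 window or its range and, of each other member, for the first window, the highest, the one with the largest absolute log2 fold change among those tested, and every one called; likeness and the further genes followed fixed rules. Windows outside this rule, such as those without overlap between breeds, were named after their values were seen. Of 30 further genes listed, 27 symbols were found, and LTBP4, EMILIN3 and ADAMTSL5 were not analysed here. Exon numbers are those of the annotation in the files. No sequences are printed, since a genome of this build was not used here.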

Additional observations from a re-analysis of the deposited data

Results flagged for a closer look

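Among 120 groups of 4 libraries, taken over the windows and gene levels of the members, 6 had 1 library far from the other 3 relative to the range of the group, and about 1 in 20 groups would be marked so by chance. In Angus these were FBLN1 window 18, where Angus 4 had 3.53 CPM and the others between 2.69 and 2.82, LTBP1 window 1, where Angus 3 had 0.101 CPM and the others between 0.209 and 0.214, and LTBP2 window 1, where Angus 1 had 0.279 CPM and the others between 0.369 and 0.382. The mean CPM per window of LOX was 0.0739 in Angus 3 and between 0.181 and 0.195 in the others. In Holstein, FBLN5 window 8 had 2.00 CPM in Holstein 4 and between 1.31 and 1.36 in the others, and the mean CPM per window of FBLN5 was 0.590 in Holstein 1 and between 0.877 and 0.907 in the others. The 2 low gene levels are those of Holstein 1 and Angus 3, the libraries in which the highest 1% of windows took 69.0% and 72.4% of reads, and the part of this in the low values was not tested.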

How the results depend on the processing

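Of 79 comparisons of the main results with an alternative, 75 left counts within 1.5 times their value and moved the log2 fold change of FBLN1 window 5, which has no test, by less than the spread between libraries. Since window 5 was chosen for its difference, its persistence is a description. The other 4 concern the count of member windows called, which was 1 (FBLN1 window 5): it was 0 with no CPM filter, where FBLN1 window 5 kept a 2.01-fold difference but its FDR came to the limit of 0.1 among 887821 windows tested, and ranged from 0 (without Holstein 2 or without Angus 4, where window 5 fell under 2-fold) to 2 (without Angus 2, where FBLN1 window 3 was added) when 1 library was left out. Over all windows the count of 267 became 141 with the quasi-likelihood test, 141 with DESeq2, 905 with no filter, 163 with 1 CPM in all 8 libraries, 154 on placed chromosomes, 642 without Holstein 1 and Angus 3, and between 145 and 564 when 1 library was left out. Summed over genes, the count of 21 became 0 with the quasi-likelihood test, 9 with DESeq2, 33 with no filter, 41 without Holstein 1 and Angus 3, and between 13 and 38 when 1 library was left out. Windows called higher in Holstein, 45, ranged from 11 with 1 CPM in all 8 libraries to 236 with no filter. The log2 fold change of FBLN1 window 5 lay between 0.94 and 1.18 in the settings run. With total reads alone as the scaling, 84 of the 97 member windows were above 0 instead of 66, and 77.54% of all windows instead of 49.57%; relative to all windows the member median was 0.09 instead of 0.11.

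Small log2 fold changes reversed when 1 library was left out: EFEMP1 window 3, from -0.273 to 0.0279 (without Angus 4), FBLN2, from -0.188 to 0.0599 (without Angus 4), FBN1, from -0.00808 (without Holstein 2) to 0.223, and FBN2, from -0.0912 to 0.0913 (above 0 without Holstein 1, Holstein 3, Holstein 4 or Angus 1). FBN2 also reversed with total reads alone (0.0312) and with the replicate block (0.00384). The cause was not tested. With the animal number as a replicate block FBLN1 window 5 had a log2 fold change of 1.03, and 346 windows were called in all, but same-numbered libraries did not deviate together (mean correlation -0.017, from -0.21 to 0.11, against 0.0085 for different numbers), so the numbers do not pair the libraries. The block changed no call among the members. Single windows of FBN1, FBN2, LTBP1, LOX and EFEMP1 mostly failed the filter, and what size of difference this depth could show there was not measured.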

Other observations

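The windows just outside each gene, which carry no gene symbol, gave values that belong in none of the comparisons above. In 9 of the 10 members the window before the gene had a higher mean CPM over the 8 libraries than the first window inside it. The widest of these gaps in CPM were in FBLN2, with 2.75 before the gene and 0.881 in its first window, in EFEMP1, with 0.905 and 0.425, and in ELN, with 1.15 and 0.700. FBLN1 stood nearly level at 0.883 and 0.720. FBN2 went the other way, with 0.0278 before and 0.157 inside. The window after FBLN1 had 2.15 CPM, with means of 2.62 in Holstein and 1.69 in Angus, and these values outside the genes were not tested.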
